A study of Rattus norvegicus with 3 samples.

Results

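Genes known as targets of the tumour suppressor p53 or as brakes on growth were followed in fetal rat cardiomyocytes given 3 different media. The 10 genes were Cdkn1a, Mdm2, Ccng1, Gdf15, Btg2, Sesn2, Bbc3, Pmaip1, Phlda3 and Gadd45a. They were chosen by name, with earlier results of these data known, so their counts beside all genes are descriptions only. A gene was measured where a probe set of the array carried its symbol and no other. This held for 8 of the 10 genes, with 12 probe sets, out of 14218 genes and 31099 probe sets in all. Btg2 and Pmaip1 had no such probe set and are not analysed here.

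p53 is a transcription factor that is stabilised by DNA damage and other stress and then switches on genes that halt the cell cycle, repair damage or start cell death. Mdm2, itself a target, marks p53 for degradation and so closes a feedback loop. Several of these genes are not p53's alone. Sesn2, Gdf15 and Gadd45a are also known targets of ATF4, the transcription factor of the amino acid and endoplasmic reticulum stress responses, and Cdkn1a is induced by TGF-beta and other signals without p53. In the heart, cardiomyocytes leave the cell cycle around birth, and Cdkn1a and its relatives are among the genes known for that exit.

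The cardiomyocytes came from fetal rats of the outbred Wistar strain and were freed by enzyme digestion. After 48 hours on the plate they spent 24 hours in fresh culture medium (the control), in medium conditioned by skeletal myoblasts, or in medium conditioned by cardiac fibroblasts. The study concerned protection of cardiomyocytes from oxidative stress by what myoblasts secrete. Each medium was measured on 1 Affymetrix array, and how many animals gave the cells is not given in the labels. No difference therefore has a replicate, an error or a p-value, and every value below describes 3 arrays.

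Values are read as log2 expression, a base inferred from the method named and the range of the values, relative to each probe set's own median array, which is 0. A difference of 1 is 2-fold, the size called a difference here. The values carry no absolute level, so genes cannot be ranked by abundance, and whether cardiomyocyte markers were strongly expressed cannot be read from them. Technical error can be gauged only from 42 probe sets for control transcripts meant to be added equally to every sample. Of these, 18 are hybridisation controls and 24 poly-A controls, with several probe sets per transcript, so the 42 are not independent. They differed by up to 0.66 between myoblast and fresh medium, up to 0.68 between fibroblast and fresh medium, and up to 1.02 between the conditioned media. In myoblast medium 40 of the 42 were above fresh medium, with a median of 0.29. In fibroblast medium 22 were above and 20 below, with a median of 0.09. Between the conditioned media 24 were higher in myoblast medium and 18 lower, with a median of 0.21. Both kinds of control were pooled in these figures.

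Promoter sequence was examined first, because p53 acts by binding DNA. RefSeq promoter windows of the rat assembly GRCr8 matched 9 of the 10 genes, and Bbc3 had none. The consensus p53 site is a pair of 10-base half-sites. A full half-site stood in the 250 bases before the start of 3 genes, Cdkn1a, Ccng1 and Gadd45a, and in 6.64% of all 33469 windows, each searched over the same 250 bases. A pair of adjacent half-sites with at most 1 mismatch in 20 bases stood before Cdkn1a and Ccng1, and in 20 windows in all (0.0598%). The windows are shown with the matching bases in capitals, namely the 20-base pair for Cdkn1a and Ccng1 and the single half-site for Gadd45a.
Cdkn1a (chr20:7150682-7150931, plus strand): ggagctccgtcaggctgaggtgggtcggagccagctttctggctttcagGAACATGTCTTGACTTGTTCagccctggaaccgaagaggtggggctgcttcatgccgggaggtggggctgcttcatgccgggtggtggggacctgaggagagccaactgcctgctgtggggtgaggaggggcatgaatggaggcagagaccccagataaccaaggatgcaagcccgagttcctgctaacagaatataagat
Ccng1 (chr10:25685039-25685126, minus strand): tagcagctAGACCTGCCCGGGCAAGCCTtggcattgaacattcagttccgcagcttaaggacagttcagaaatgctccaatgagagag
Gadd45a (chr4:97486800-97486887, minus strand): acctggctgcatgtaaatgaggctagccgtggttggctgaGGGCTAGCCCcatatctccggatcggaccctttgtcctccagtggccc

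The Cdkn1a pair began 201 bases before the annotated start, the Ccng1 pair 242 bases before it and the Gadd45a half-site 48 bases before it. No window of these genes held TGATGNAA, the core of the element bound by ATF4 with C/EBP partners, on either strand, against 3.40% of all windows. TGANTCA, the AP-1 motif, was also in none of them, against 6.34% of all windows. At such low shares, finding neither motif in so few genes says little about them. A match is a string of letters and not a shown binding site, and these windows miss sites further away. The known p53 sites of Mdm2 and Gadd45a, for example, lie in introns.

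All 8 measured genes had their lowest deposited value in fresh medium and higher values in both conditioned media. Fresh medium was the lowest array for 3354 genes, 23.6% of all. All genes include 1627 at 0 on every array, which can have no lowest array. This share and those of the orders below are therefore higher among genes with a value. Between the conditioned media the 8 genes parted. Cdkn1a, Mdm2, Ccng1, Bbc3 and Phlda3 were highest in fibroblast medium, an order that 13.5% of all genes had. Gdf15, Sesn2 and Gadd45a were highest in myoblast medium, as were 8.31% of all genes with fresh medium lowest. The margins between conditioned media were small for some genes, 0.01 for Bbc3 and 0.19 for Ccng1.

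**Figure D1:**
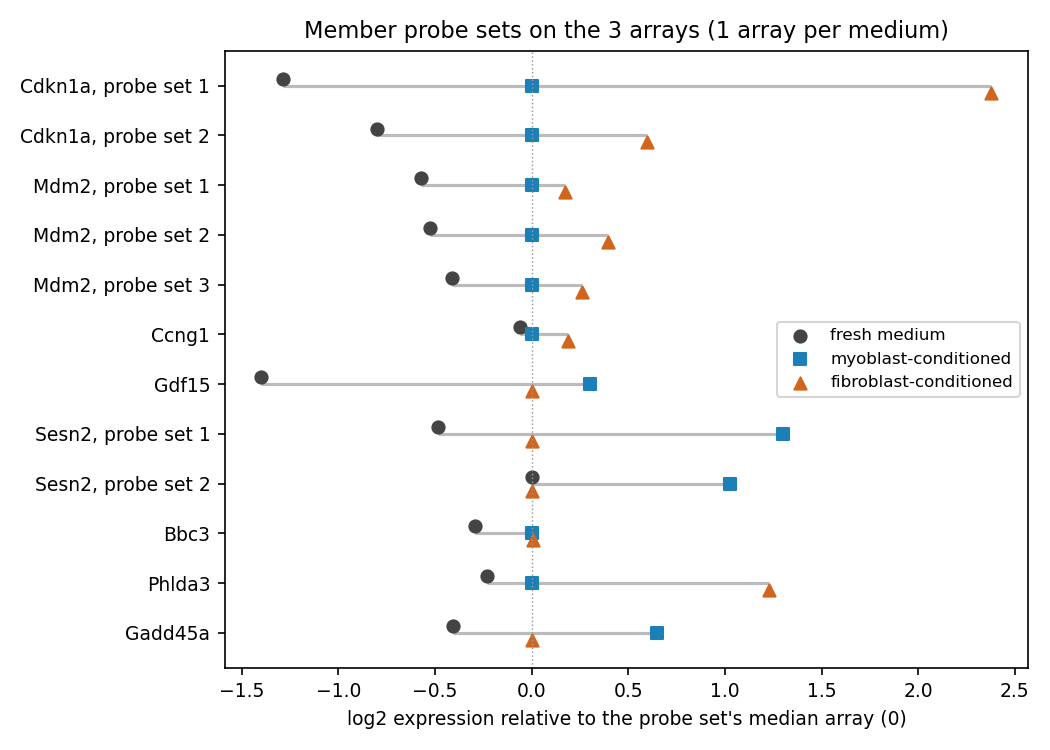
Log2 expression of the 12 probe sets on the 3 arrays, relative to each probe set's median array at 0 on the horizontal axis, with 1 point per medium and a line over the range. Fresh medium (circles) is lowest in every probe set except the second of Sesn2, where it ties with fibroblast medium at 0, and the first Cdkn1a probe set has the widest range.

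Against fresh medium, 4 of 8 genes were at least 2-fold higher in myoblast medium, where 1.35% of all genes were. In fibroblast medium 3 of 8 were, against 4.26% of all genes. None was 2-fold lower in either, against 0.844% and 2.60% of all genes. The same shares of all genes apply to the gene lists below. A count of none in a short list therefore says little. For counts on either side of 0, 5546 of all genes were above 0 in myoblast medium, 5719 below and 2953 at 0. In fibroblast medium 5824 were above 0, 6133 below and 2261 at 0. The median of the 8 differences was 0.77 for myoblast medium and 0.59 for fibroblast medium, and the median over all genes was 0.00 in both. Both comparisons use the same fresh medium array, so a low value on that array enters both. Cdkn1a and Gdf15 were the 2 genes past 2-fold in both media, as were 0.457% of all genes. If the differences are centred on the median of the added control transcripts, a choice made with the data in view, 2 of 8 genes remain past 2-fold in myoblast medium (0.619% of all genes). Those are Gdf15 at 1.41 and Sesn2 at 1.12, whereas Cdkn1a is at 0.76 and Gadd45a at 0.77. Ccng1 (-0.22) and Phlda3 (-0.05) are then below fresh medium. In fibroblast medium the count stays at 3 (3.81%). Many controls lay on each side of 0 there, with a median absolute difference of 0.34 against a median of 0.09. Their median is therefore a poor measure of a shift between those arrays.

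**Figure D2:**
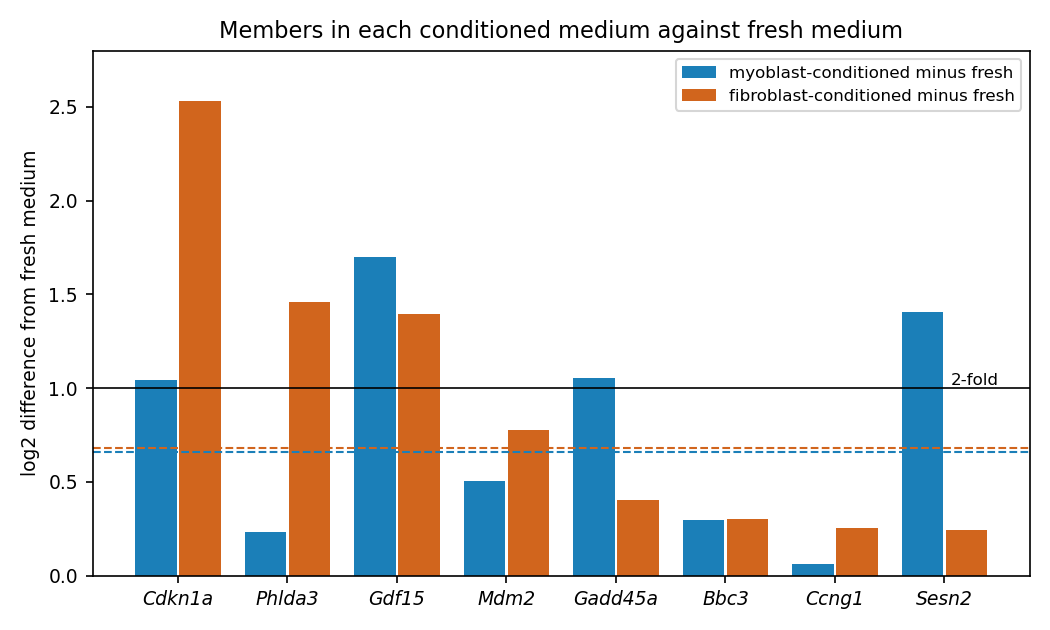
Log2 difference of each gene from fresh medium (vertical axis, mean of its probe sets) in myoblast-conditioned (blue) and fibroblast-conditioned medium (orange), with 2-fold as a black line and the widest gap among the added control transcripts as dashed lines. Cdkn1a and Phlda3 stand highest in fibroblast medium, and Gdf15, Sesn2 and Gadd45a in myoblast medium.

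Cdkn1a encodes p21, an inhibitor of cyclin-dependent kinases and the best known effector of p53-dependent arrest. Its probe set 1387391_at was at -1.29 in fresh medium, 0.00 in myoblast medium and 2.38 in fibroblast medium. Its other probe set, 1388674_at, was at -0.80, 0.00 and 0.60 in the same order. Both probe sets gave the same order of the 3 media, but the range was much wider on the first. Fibroblast medium was higher than fresh medium by 3.67 (12.7-fold) on 1387391_at and by 1.39 (2.63-fold) on 1388674_at, with a mean of 2.53. Myoblast medium was higher by 1.29 and by 0.80, so only the first probe set passed 2-fold, as did the mean of 1.04. Against myoblast medium, fibroblast medium was higher by 1.49 on average. Only 86 genes had a larger positive difference from fresh medium than Cdkn1a (rank 87) in fibroblast medium, and it ranked 182 in myoblast medium.

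Mdm2 encodes the ubiquitin ligase that holds p53 down. Its 3 probe sets agreed closely. They were at -0.57, -0.53 and -0.41 in fresh medium, at 0.00 in myoblast medium and at 0.17, 0.40 and 0.26 in fibroblast medium. The mean difference from fresh medium was 0.50 (1.42-fold) in myoblast medium and 0.78 (1.71-fold) in fibroblast medium. Neither reached 2-fold, and only the second was beyond the added control transcripts. Still, 95.0% of all genes had a lower difference in myoblast medium and 93.7% in fibroblast medium.

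Ccng1 encodes cyclin G1, a p53 target that acts back on Mdm2. Its window holds the p53-like pair shown above, and its range over the 3 arrays, 0.25, was the smallest of the 8 genes. Its single probe set was at -0.06 in fresh medium, 0.00 in myoblast medium and 0.19 in fibroblast medium, all within the range of the added control transcripts. Bbc3 encodes PUMA, a BH3-only protein that triggers apoptosis. It was at -0.29 in fresh medium, 0.00 in myoblast medium and 0.01 in fibroblast medium, also within that range.

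Phlda3 encodes a pleckstrin-homology protein that restrains Akt signalling. Its probe set was at -0.23 in fresh medium, 0.00 in myoblast medium and 1.23 in fibroblast medium. Fibroblast medium thus stood apart from both other arrays, by 1.46 (2.75-fold) from fresh medium and by 1.23 (2.34-fold) from myoblast medium. The difference between myoblast medium and fresh medium was 0.23. Cdkn1a and Phlda3 were the 2 of 8 genes at least 2-fold lower in myoblast than in fibroblast medium, against 3.94% of all genes.

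Gdf15 encodes a secreted stress hormone of the TGF-beta superfamily. It was at -1.40 in fresh medium, 0.30 in myoblast medium and 0.00 in fibroblast medium. Fresh medium stood well below both conditioned media, which differed from each other by only 0.30. Gdf15 was higher than in fresh medium by 1.70 (3.25-fold) in myoblast medium and by 1.40 (2.63-fold) in fibroblast medium. It ranked 43 of 14218 in myoblast medium, above the mean of the Sesn2 probe sets but below the first of them. RefSeq gives Gdf15 2 starts, and the window of one has TATAAA (capitals) 28 bases before the start, a motif on the gene's strand in 8.06% of all windows.
Gdf15 (chr16:18839177-18839264, plus strand): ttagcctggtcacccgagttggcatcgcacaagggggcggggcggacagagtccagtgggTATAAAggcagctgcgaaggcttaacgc

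Sesn2 encodes sestrin 2, which restrains mTORC1 and takes part in antioxidant defence. Probe set 1391607_at was at -0.48 in fresh medium, 1.30 in myoblast medium and 0.00 in fibroblast medium. Probe set 1396901_at had a value only in myoblast medium, 1.03, and the other arrays are read as tied at 0. On both probe sets myoblast medium was the high array. The mean difference was 1.40 (2.65-fold) between myoblast and fresh medium and 1.16 (2.24-fold) between the conditioned media. Fibroblast medium was 0.48 above fresh medium on 1391607_at, and 0.24 above it as a mean with 1396901_at, where both arrays were blank. Both figures were within the range of the added control transcripts. Sesn2 was the 1 gene of 8 at least 2-fold higher in myoblast than in fibroblast medium, against 2.12% of all genes. Centred on the added control transcripts, it was at 0.95 and no gene passed. Many controls lay on each side of 0 for this pair too, with an SD of 0.48, so this centring is uncertain.

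Gadd45a encodes a stress sensor that binds p21, PCNA and the kinase MEKK4. It was at -0.41 in fresh medium, 0.65 in myoblast medium and 0.00 in fibroblast medium. Myoblast medium was the high array, by 1.05 (2.07-fold) over fresh medium. The excess over fibroblast medium was 0.65, less than the widest gap among the added control transcripts for that pair. Fibroblast medium exceeded fresh medium by 0.41.

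**Figure D3:**
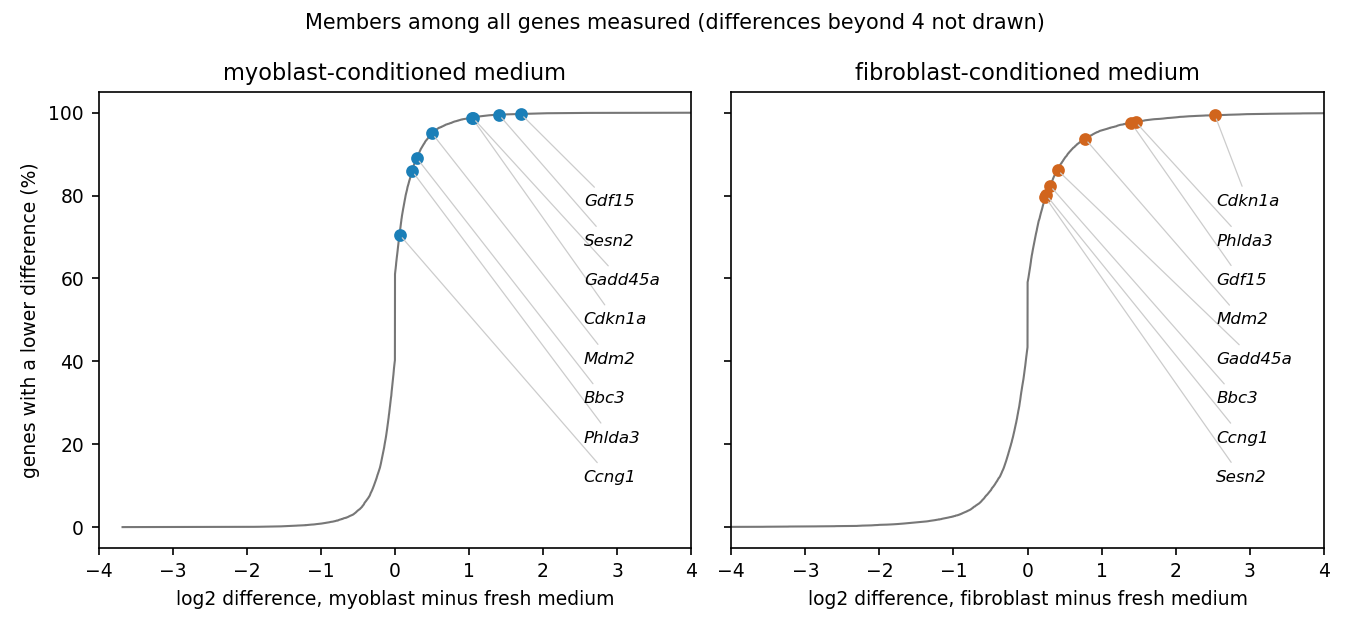
Cumulative distribution of the log2 differences of 14218 genes (grey curve), with the vertical axis giving the percentage of genes with a lower difference and each member marked as a point, for myoblast-conditioned (left) and fibroblast-conditioned medium (right) against fresh medium. All 8 genes lie on the upper part of both curves, with Gdf15 highest on the left and Cdkn1a highest on the right.

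Genes with the most similar values were found by the Euclidean distance over the 3 arrays, for the 5 members past 2-fold in any comparison. For Cdkn1a they were Sema3c, which encodes a secreted semaphorin (distance 0.09), Mybpc2 (0.14) and P2ry2 (0.15). Phlda3 was closest to Rasl11b (0.002), Kifc3 (0.04) and C2h4orf46 (0.05). Those of Gdf15 were the metallothionein gene Mt2A (0.06), Cdh17 (0.17) and the amino acid transporter gene Slc1a4 (0.18). Sesn2 was closest to the tRNA synthetase gene Nars1 (0.05), the metallothionein gene Mt1 (0.08) and a further tRNA synthetase gene, Wars1 (0.09). Near Gadd45a were Spcs3 (0.04), the haem oxygenase gene Hmox1 (0.05) and the tRNA synthetase gene Aars1 (0.07). With 3 arrays many genes have similar values, and these distances are descriptions.

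The 8 genes were then set beside a wider list of p53 targets. Of 24 measured genes of that list, none was 2-fold higher or lower in myoblast medium, 17 were below 0 and 3 above, and the median was -0.11. Those above 0 were Ddit4, an inhibitor of mTORC1 signalling that the ATF4 list also holds (0.66), Rps27l (0.59) and the nuclease gene Aen (0.39). Ccng2, the paralog of Ccng1, was at -0.55. In fibroblast medium 3 of 24 were at least 2-fold higher and none lower, with a median of 0.02. They were Zmat3, an RNA-binding protein gene (1.26), Ddit4 (1.23) and Aen (1.16). The tetraspanin gene Cd82 was at 0.80 and the death receptor gene Fas at 0.78, against Sesn1 at -0.96. Only Ddit4, Rps27l and Aen shared with the 8 genes the lowest value in fresh medium.

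**Figure D4:**
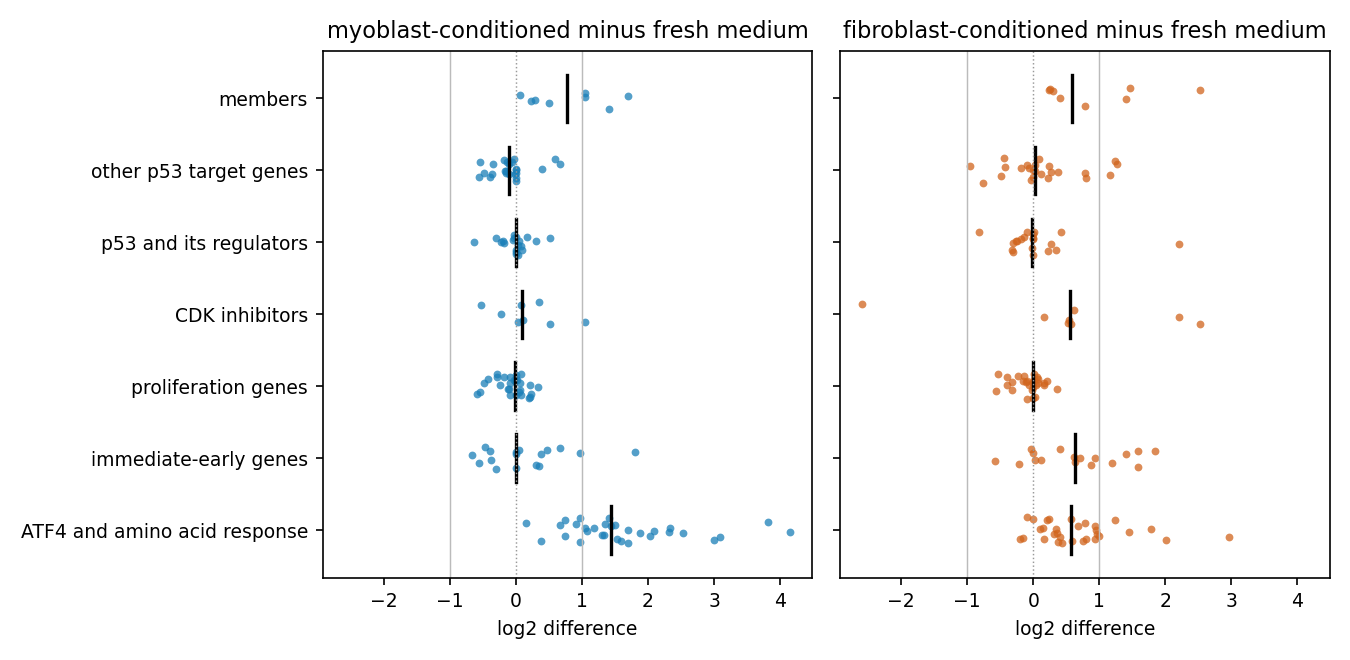
Log2 difference from fresh medium of each gene of 7 lists (points, with vertical scatter for legibility only) and the list median (black bar), in myoblast-conditioned (left) and fibroblast-conditioned medium (right), with grey lines at 2-fold. The members and the ATF4 list lie above 0 in myoblast medium, whereas the other p53 targets and the proliferation genes have medians near 0 in both media.

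Regulators of p53 differed little. Of 20 measured regulators none reached 2-fold in myoblast medium, with a median of 0.00. In fibroblast medium 1 did, Cdkn2a, which encodes the cell cycle inhibitor p16 and, in another reading frame, the Mdm2 antagonist ARF. It was at -0.51 in fresh medium, 0.00 in myoblast medium and 1.70 in fibroblast medium, so 2.21 above fresh medium in the latter. The p53 inhibitor Mdm4, a paralog of Mdm2, was at 0.17 in myoblast medium and -0.30 in fibroblast medium relative to fresh medium. Ppm1d, which encodes a phosphatase that ends p53 signalling and is a p53 target too, was at -0.23 and -0.32. The regulators furthest below 0 were Pml in myoblast medium (-0.64) and Prkdc, the DNA-dependent protein kinase gene, in fibroblast medium (-0.83).

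The other inhibitors of cyclin-dependent kinases were compared with Cdkn1a. In myoblast medium none of the other 7 reached 2-fold, with values from -0.53 for Cdkn1c to 0.51 for Cdkn2a. In fibroblast medium 6 of these 7 were above 0, and Cdkn2a was past 2-fold. Cdkn2d was at 0.62, Cdkn1b at 0.56, Cdkn2b at 0.54, Cdkn3 at 0.53 and Cdkn2c at 0.16. These 5 were smaller in size than the most extreme added control transcript (0.68), although Cdkn2d lay above the highest control, 0.59. Cdkn1c, the imprinted gene of p57, went the other way. It was at 0.53 in fresh medium, 0.00 in myoblast medium and -2.07 in fibroblast medium, 2.59 (6.02-fold) below fresh medium in the latter. The p21 gene and the p57 gene, which are close paralogs, thus differed in opposite directions by more than 2-fold.

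**Figure D5:**
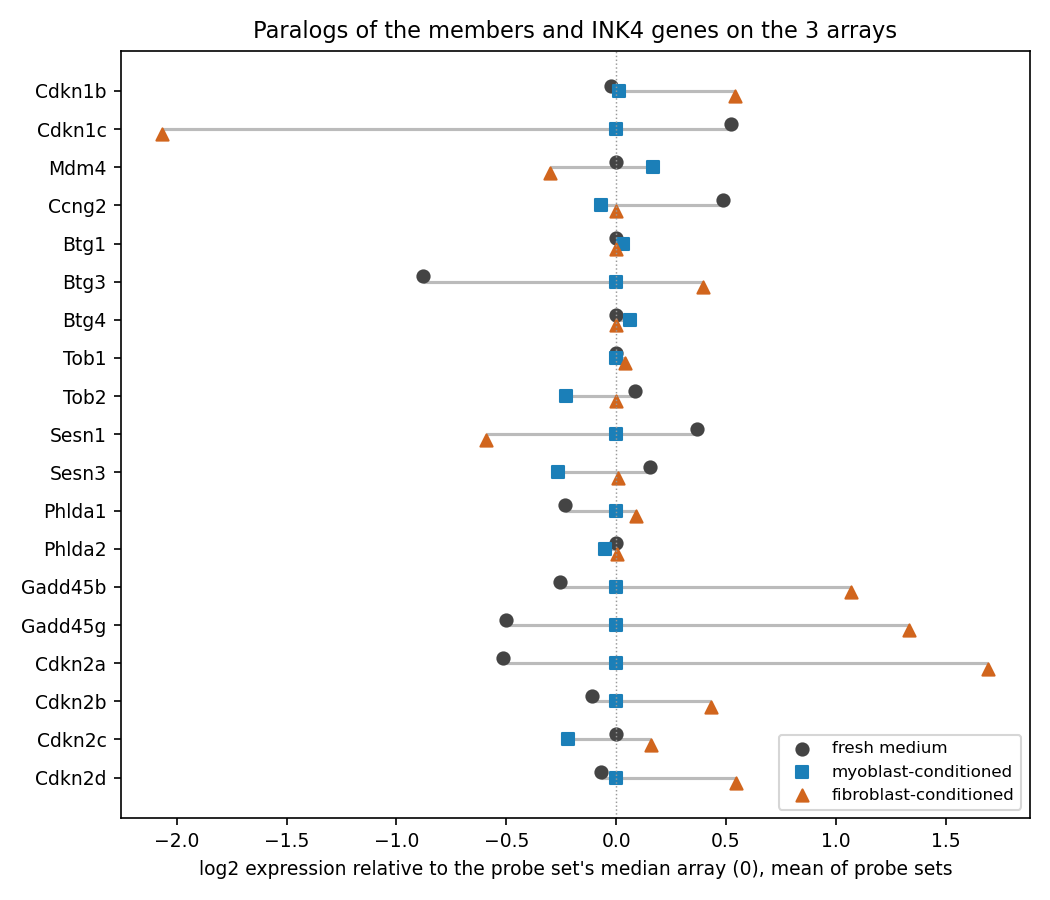
Log2 expression of the 15 paralogs of the members and of 4 INK4 genes on the 3 arrays, relative to each probe set's median array at 0 on the horizontal axis (mean of probe sets), with 1 point per medium. Cdkn1c and Sesn1 are lowest in fibroblast medium, and Cdkn2a, Gadd45b, Gadd45g and Btg3 are highest there.

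Paralogs of the members were a mixed group. Of 15 measured, none was past 2-fold in myoblast medium, and in fibroblast medium 3 were higher and 1, Cdkn1c, lower. The 3 were Gadd45g at 1.84 (3.57-fold), Gadd45b at 1.32 (2.50-fold) and the antiproliferative gene Btg3 at 1.28 (2.42-fold). Gadd45a, which was highest in myoblast medium, was therefore the only one of the 3 Gadd45 genes with that order. Gadd45b was at -0.25 in fresh medium, 0.00 in myoblast medium and 1.07 in fibroblast medium, and Gadd45g at -0.50, 0.00 and 1.33. Btg3 was at -0.88, 0.00 and 0.40, so that fresh medium was its low array, 0.88 below myoblast medium.

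The sestrins also parted. Sesn1 was highest in fresh medium at 0.37, with 0.00 in myoblast medium and -0.59 in fibroblast medium. Sesn3 was at 0.15, -0.26 and 0.01. Sesn2 was the only sestrin above fresh medium in myoblast medium. Relative to fresh medium, Phlda1 was at 0.23 in myoblast and 0.32 in fibroblast medium, and Phlda2 at -0.05 and 0.00. Btg1, Btg4 and Tob1 were within 0.07 of 0 on every array, and Tob2 was at -0.31 in myoblast medium and -0.08 in fibroblast medium.

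Of 7 measured BH3-only genes, which encode triggers of apoptosis, none was past 2-fold in myoblast medium. In fibroblast medium 1 was, Bcl2l11, the BIM gene, at 1.30 below fresh medium (log2 difference -1.30). Bik was at -0.89 and Bid at 0.42 there. Bmf and Hrk had no value on any array and were read as 0. The medians were 0.00 in both comparisons.

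Proliferation genes, which fall when p21 arrests cycling cells, were counted in the same way. None of 29 genes passed 2-fold in either medium, and the medians were -0.02 in myoblast medium and 0.00 in fibroblast medium. Bub1b, 1 of the 29, had no value on any array and was read as 0. Few of all genes were 2-fold lower (0.844% in myoblast and 2.60% in fibroblast medium), so none of 29 says little about these genes. Whether cells were arrested was not tested. The lowest in myoblast medium were the replication helicase genes Mcm6 (-0.60), Mcm2 (-0.54) and Mcm5 (-0.48) and the transcription factor gene E2f1 (-0.42). The highest there was the cyclin gene Ccnb1 (0.33). In fibroblast medium Mcm7 was at -0.56 and the proliferation marker gene Mki67 at -0.53, against Tyms at 0.36. All these differences were smaller in size than the most extreme added control transcript, but 40 of 42 controls were above 0 in myoblast medium, so its 4 lowest genes lay below all of them.

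Sesn2, Gdf15 and Gadd45a, the 3 genes highest in myoblast medium, were set beside the ATF4 and amino acid response. Of 31 measured genes of that list, which does not hold them, 23 were at least 2-fold higher in myoblast medium, 31 were above 0, and the median was 1.44. In fibroblast medium 5 passed 2-fold, and the median was 0.57. The median on the fresh medium array was -0.43, against 0.95 in myoblast and 0.00 in fibroblast medium. Atf4 itself was 1.59 above fresh medium in myoblast medium and 0.59 above it in fibroblast medium, the order of the media that Sesn2, Gdf15 and Gadd45a had. Of the 31 genes, 26 were higher in myoblast than in fibroblast medium and 5 lower. Among those 5 was Cebpb, 1.04 above fresh medium in myoblast and 1.79 above it in fibroblast medium. In fibroblast medium 3 of the 31 were below fresh medium, among them Ddit3 at -0.20. Whether ATF4 acted on these genes was not tested.

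Cdkn1a and Phlda3, highest in fibroblast medium, were set beside immediate-early genes, which answer to growth and stress signals within minutes. Of 17 measured, 5 were at least 2-fold higher in fibroblast medium (4.26% of all genes) and none lower (2.60%), with a median of 0.63. Below 0 were 3, among them Egr1 at -0.58 and Egr2 at -0.21. The 5 past 2-fold were Ier3 at 1.85, Klf4 at 1.59, Dusp1 at 1.58, Junb at 1.41 and Myc at 1.20. In myoblast medium only Myc passed 2-fold (1.80), where 1.35% of all genes were 2-fold higher, and the median was 0.00. Egr1 was at -0.67 and Egr2 at -0.56 there.

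Markers of other cell types moved beside the differences given for both conditioned media. Fibroblast medium exceeded fresh medium by 2-fold or more for 16 of 20 markers of macrophages and leukocytes, with a median difference of 2.16 and a range from 0.08 (Cd163) to 5.41 (Adgre1). In myoblast medium 18 of 20 were below fresh medium, with a median of -0.44. The 2 above it were Fcgr2b at 1.13, past 2-fold, and Cd163 at 0.17. Endothelial markers were past 2-fold below fresh medium for 10 of 14 in fibroblast medium (median -2.02) and for 4 in myoblast medium (median -0.54). Of 20 cardiomyocyte markers, 6 were at least 2-fold lower in fibroblast medium (median -0.65), with Myl7 at -2.30 and Myh6 at -2.11, while 4 were above 0, among them Tcap at 1.46 and Myh7 at 0.72. In myoblast medium 1 was past 2-fold higher (Myh7 at 1.43) and 1 lower (Mb at -1.42), with a median of -0.16. Of 7 smooth muscle markers, 4 (Acta2, Tagln, Cnn1 and Myh11) were lowest in fresh medium. Of the list, 3 were past 2-fold in myoblast medium (Cnn1 at 3.02, Acta2 at 1.98 and Tagln at 1.33, list median 0.55) and 4 in fibroblast medium (median 1.15). Fibroblast markers went both ways in fibroblast medium, with 2 of 12 past 2-fold higher (Mfap5 at 3.88, Thy1 at 1.69) and 2 lower (Fbln1 at -2.07, Pdgfra at -1.48). In myoblast medium 10 of the 12 were below fresh medium and 2 above it, with a median of -0.10. Past 2-fold lower there were Pdgfra at -1.42 and Fbln1 at -1.03. Of 7 erythroid markers, 1 was past 2-fold lower there, Hbb at -4.32. Of 9 skeletal myoblast markers, none passed 2-fold in either medium. Neither summed levels nor markers at or near 0 can be given from centred values, and the part of other cells in the values of Cdkn1a, Phlda3 or any other gene was not tested. In such cultures more cells of a type and more RNA per cell cannot be told apart. The 5′ minus 3′ difference of control probe sets, a sign of RNA integrity, was -0.85 for hexokinase, -0.22 for beta-actin and 0.01 for GAPDH between fibroblast and fresh medium. Between myoblast and fresh medium these were -0.01, 0.15 and -0.02.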

How the data were processed

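The deposited values, 1 array per medium, were read as log2, a base inferred from their range and from RMA being named. RMA, a method that corrects background, equalises arrays and summarises probes, is named in the submitters' processing notes, with no settings stated. That the deposited values are centred on each probe set's median array was inferred from them. Of 31099 probe sets, 17117 had 2 values, always of opposite sign, 8002 had 1, 5980 had none and 0 had 3. Blanks were read as 0. Centring 3 differing values on their median would leave 1 blank, so for probe sets with 1 value or none this reading is an assumption. Probe sets with 1 annotated symbol (20832) were used, and symbols were updated through Entrez IDs with RefSeq (GRCr8), which matched 20764. Probe sets of a gene were averaged.

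Genes with an absolute log2 difference of at least 1 were counted, and no test was possible with 1 array per medium. The members, lists and tests were chosen with earlier results of these data known. Of 256 list genes, 19 had no probe set of their own symbol. Named were all members and paralogs, Mdm4, Ppm1d, up to 4 genes per list in the direction of its median and 2 the other way, and the 3 nearest genes of a member. Values of other genes of a described list were added after they were seen. The counting step was run on simulated data for myoblast against fresh medium over 14218 genes. With a noise SD of 0.15 per array it gave 200 of 200 genes changed by 2 (log2), and 0 others. That change is well past the threshold of 1 and no blanks were simulated, so it gives no error rate for the real arrays. The alternatives were other summaries of probe sets, other probe set filters, another centring, thresholds of 1.5-fold and 3-fold and, chosen after seeing the data, centring on the added control transcripts. Python 3.11.15, NumPy 2.4.6, pandas 2.3.3 and Matplotlib 3.10.9 were used.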

Additional observations from a re-analysis of the deposited data

How the results depend on the processing

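No paired analysis was possible because each medium had 1 array and the labels number no replicates, and for the same reason no array could be left out. With a threshold of 3-fold, 1 of 8 genes was higher in myoblast than in fresh medium (0.38% of all genes), 1 was higher in fibroblast than in fresh medium (1.84%), and 0 were higher (0.591%) or lower (1.79%) in myoblast than in fibroblast medium. With 1.5-fold, 2 were higher in myoblast than in fibroblast medium (6.65%). Centred on the median of the added control transcripts, chosen after the data were seen, 2 were higher in myoblast than in fresh medium with a median of 0.49. With that centring 0 were higher in myoblast than in fibroblast medium (1.36%). It is least certain outside the comparison of myoblast with fresh medium, because many controls lay on each side of 0 elsewhere. The other counts stayed within 1.5 times and the other medians within 1 SD of the added control transcripts' differences under all settings tried. With only probe sets of 2 values, which all 8 genes have, the member counts were the same but the shares of all genes rose, to 2.04% higher and 1.39% lower in myoblast medium, 6.57% and 4.24% in fibroblast medium, and 3.42% and 6.21% between the media. No gene's 2-fold difference changed sign, but Gdf15 (1.70) was below Sesn2 in myoblast medium in the settings that follow. Taking the probe set with the widest range moved Cdkn1a to 1.29 in myoblast and 3.67 in fibroblast medium against fresh medium, and to -2.38 between the media. Sesn2 moved to 1.78 in myoblast medium with that setting and when probe sets with values on fewer than 2 arrays were dropped. The signal over background is unknown in centred values, and 5 of 8 genes rest on 1 probe set.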
